A study of Mus musculus with 11 samples.

Results

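The DNA transposon features are the entries of the deposited repeat table whose repeat class is DNA. The rule took all of them and used no measured value, and it gave 13825 of the 442429 repeat features in the table, or 3.12%. They carry 197 repeat names in 17 families, and the 88 names with 50 or more fragments in both libraries together are described one by one or in counts. A feature is not a single locus: it joins copies of a name that share a running number across as many as 21 chromosomes. The DNA transposon features hold 151475 copies with a mean length of 180 bases, a median of 11 copies per feature and 27.2 Mb of sequence. Another 129 features are labelled "DNA?" and were not included.

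DNA transposons move by a cut-and-paste route in which a transposase binds the short inverted repeats at the ends of the element, excises it and inserts it elsewhere. The hAT, Tc1/mariner, MULE and piggyBac superfamilies each have their own type of transposase. In the mouse genome they are old remnants, many of them short nonautonomous elements that never coded for a transposase, and no family is known to be moving now. Some transposase genes were taken over by the host and now serve as DNA-binding proteins or recombinases. In embryonic stem cells DNA methylation is studied mainly as a silencer of retroelements, which copy themselves through RNA. The features described here are remnants of elements that do not use that route.

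The RNA came from J1 mouse embryonic stem cells with mutated DNA methyltransferase genes, kept on mitomycin C-treated mouse fibroblast feeders in serum medium with LIF. Poly(A)-selected RNA at day 0 was compared between 1 library of the genotype labelled TKO and 1 library of the genotype labelled TKO_FL. Both are of the J1 line and were kept under the same culture conditions. A difference between genotypes cannot be told apart from a difference between cultures. Neither the alleles behind TKO nor the meaning of FL are given in the sources used here, and whether a genotype stands for 1 clone is not given either. In the gene table Dnmt1, the maintenance methyltransferase, stood at 54.9 TPM in TKO and 1177 TPM in TKO_FL. With 1 library per genotype no difference has a replicate check and no p-value is given. The 95% intervals are exact binomial intervals of fragments, they cover counting error only, and PCR copies of a fragment are counted as fragments.

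Fragments, the sequenced pieces of cDNA, were recovered from the deposited values, and some appear as fractions. TPM is the count of fragments per base of feature length, scaled to the same total in each library. The repeat table and the gene table were scaled separately. The TPM of a feature and that of a gene are therefore not on the same scale, and only their differences between libraries can be compared. The repeat table came to 1327700 fragments in TKO and 1179815 in TKO_FL. All 8 stem cell markers examined were detected, and their summed level was 9189 TPM in TKO and 11590 TPM in TKO_FL. The 12 fibroblast markers, which the feeder cells express, summed to 401 TPM in TKO and 212 TPM in TKO_FL, and 3 of the 11 with at least 1 TPM were 2-fold or more lower in TKO_FL. The 11 primitive endoderm markers summed to 501 TPM in TKO and 71.2 TPM in TKO_FL, and 11 of 11 were 2-fold or more lower in TKO_FL. Over all 13642 genes with at least 1 TPM in either library, 3.06% were 2-fold or more lower in TKO_FL. None of the marker genes has an exon over a DNA transposon feature with 20 or more fragments. The part of these cell types in the results below was not tested, and in bulk RNA fewer cells of a type and less RNA per cell cannot be told apart.

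Sequence could be read where a copy lies in a window from 250 bases before to 50 bases after a RefSeq gene start (assembly GRCm38.p6, the mm10 build). Copies of DNA transposons reach into 389 of 32851 such windows, or 1.18%. The 3 copies below each lie wholly before a gene start and outside every exon of the gene table. Each belongs to a feature with 50 or more fragments. Copies were not taken from all chromosomes, so these 3 need not be every copy that meets these conditions. They are written 5′ to 3′ on the strand of the element, and capitals mark CpG dinucleotides, the sites that DNA methyltransferases act on.
RMER30_dup146: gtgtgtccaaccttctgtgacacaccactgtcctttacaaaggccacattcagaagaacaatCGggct
URR1B_dup841: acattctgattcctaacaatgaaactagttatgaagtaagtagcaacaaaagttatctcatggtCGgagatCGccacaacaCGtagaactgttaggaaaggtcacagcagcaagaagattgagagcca
MARNA_dup4: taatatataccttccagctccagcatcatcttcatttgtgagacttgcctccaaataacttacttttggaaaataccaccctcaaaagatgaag

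The RMER30 copy lies at chr6:117861895-117861962 on the plus strand, 62 bases before the start of Zfp239, a zinc finger gene. It holds 1 CpG in 68 bases. Its feature had 72 fragments in TKO and 78 in TKO_FL, but another of its 15 copies lies in an exon of Ccdc43, so the fragments cannot be placed at Zfp239. The URR1B copy lies at chr3:153911004-153911131 on the plus strand, 37 bases before a start of Rabggtb, a minus-strand gene for a subunit of the enzyme that attaches geranylgeranyl groups to Rab proteins. It holds 3 CpGs in 128 bases. Its feature, with 11 copies and none in an exon, had 41 fragments in TKO and 43.4 in TKO_FL. The MARNA copy, a piece of a mariner element, lies at chr10:20175100-20175193 on the plus strand, 50 bases before the predicted gene Gm46213. It holds no CpG in 94 bases. Its feature had 17 fragments in TKO and 34 in TKO_FL, spread over 20 possible copies.

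The same windows describe the CpG content of these elements. Taking the longest stretch of each copy, the 281 stretches of DNA transposon of at least 50 bases had a median of 0.943 CpG per 100 bases, and 88 of them had none. The median over all windows was 2.33 CpG per 100 bases. In the rest of the windows that hold a copy it was 1.25. By these medians the copies had the fewest CpGs and all windows the most, but the sets were not paired by window. Base composition differed too: the median GC content was 41.8% in the stretches and 53% over all windows. Among the 180 hAT-Charlie stretches the 8-base words AGTAGCAA and TCTCAACC were the commonest, each in 32 on the element's strand. AGTAGCAA, searched on both strands, was in 34 of them, or 18.9%, including the URR1B copy printed above. It was in 1 of the 101 stretches of other families and in 0.796% of all windows. These words were chosen for their frequency in the same stretches, and a match is a description of sequence, not a binding site.

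Taken as a class, DNA transposon features were a small share of the repeat RNA. They held 23399 fragments in TKO, or 1.76% of the fragments in the repeat table, and 22145 in TKO_FL, or 1.88%. The log2 ratio of these shares was 0.09, with an interval of 0.06 to 0.12. On the TPM scale, in which each feature's fragments are divided by its length, they summed to 10998 in TKO and 11991 in TKO_FL, a log2(TPM + 1) difference of 0.12. Per megabase of annotated sequence the DNA class had 860 fragments in TKO and 814 in TKO_FL. LINE features had 257 and 230, LTR features 818 and 620, and SINE features 1494 and 1392, so the density of the DNA class was closest to that of the LTR class in TKO.

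The TPM difference of the class was gone when 1 feature was left out. That feature, MER3_dup238, is a single copy of MER3, a short nonautonomous hAT-Charlie element, at chr2:164424627-164424738 on the plus strand. Its 112 bases lie entirely in an exon of Sdc4, a heparan sulfate proteoglycan of the cell surface on the minus strand. It stood at 825 TPM (117 fragments) in TKO and 1879 TPM (248 fragments) in TKO_FL, a log2(TPM + 1) difference of 1.19. The feature held 0.801% of the fragments of the class, but because it is short it made up 7.50% of the class's TPM in TKO and 15.7% in TKO_FL. Without it the class summed to 10173 TPM in TKO and 10112 TPM in TKO_FL, a difference of -0.01, while the log2 ratio of fragment shares stayed at 0.08. The gene Sdc4 itself, on the separate TPM scale of the gene table, was at 88.5 TPM in TKO and 145 TPM in TKO_FL.

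Detection was sparse. Of the 13825 features, 4149 (30.0%) had any signal in either library and 9676 had none. Of the 197 names, 25 had no signal, 84 had less than 50 fragments and 88 had 50 or more. The 88 names comprise 11698 features and 96.9% of the fragments of the class. The names just under the limit were MER99 and Charlie25 with 46 fragments each and MER63B with 47, and those just over it were Tigger17 with 50, FordPrefect with 50.3 and MER45A with 52. Signal was concentrated as well: the 10 features with most fragments held 13.9% of all fragments of the class and the 100 with most held 49.3%.

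The families fell into a steep order of abundance that both libraries shared for the leading ones. hAT-Charlie, the largest mammalian group of hAT elements and mostly nonautonomous, held 69.5% of the fragments. It had 7861 TPM (16031 fragments) in TKO and 8975 TPM (15622 fragments) in TKO_FL. Its log2 ratio of fragment shares was 0.13 (0.10 to 0.16) and its log2(TPM + 1) difference 0.19, which became 0.01 without MER3_dup238. TcMar-Tigger, elements related to the pogo branch of the Tc1/mariner superfamily, held 19.3% of the fragments. It had 1804 TPM (4721 fragments) in TKO and 1672 TPM (4074 fragments) in TKO_FL, and its ratio of fragment shares was -0.04 (-0.10 to 0.02), an interval that holds 0.

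**Figure D1:**
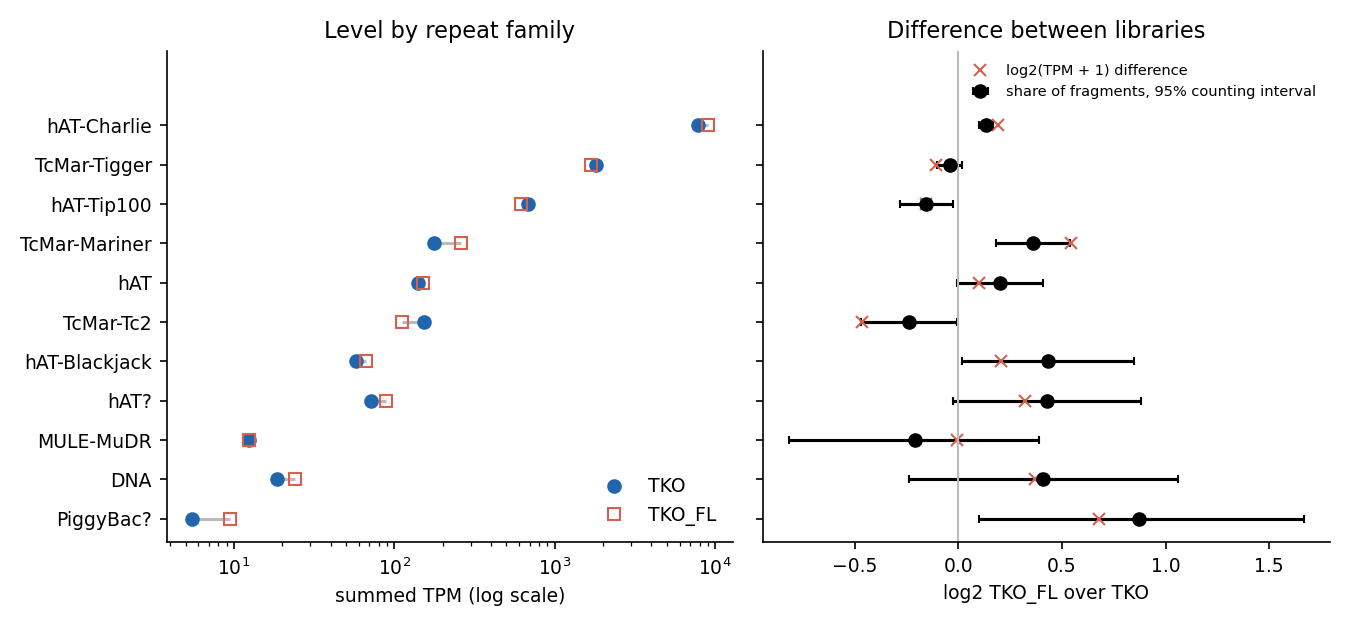
Repeat families of DNA transposons with 50 or more fragments, in order of fragments from the top. Left, the summed TPM of each family (log axis) in TKO (filled circles) and TKO_FL (open squares); right, the log2 ratio of fragment shares with its 95% counting interval (black) and the log2(TPM + 1) difference (crosses). The symbols of the 2 libraries lie close together in the abundant families, hAT-Charlie at 7861 and 8975 TPM, and the intervals widen as fragments become few.

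The families of middle abundance went in different directions. hAT-Tip100 was at 685 TPM (1115 fragments) in TKO and 615 TPM (890 fragments) in TKO_FL, with a ratio of fragment shares of -0.16 (-0.28 to -0.03). TcMar-Mariner was at 177 TPM (483 fragments) in TKO and 259 TPM (551 fragments) in TKO_FL, with a ratio of 0.36 (0.18 to 0.54). TcMar-Tc2 was at 153 TPM (362 fragments) in TKO and 111 TPM (273 fragments) in TKO_FL, with a ratio of -0.24 (-0.47 to -0.01). The intervals of these 3 families left out 0, those of hAT-Tip100 and TcMar-Tc2 narrowly. The unsubdivided hAT family was at 140 TPM (377 fragments) in TKO and 151 TPM (385 fragments) in TKO_FL, with an interval of -0.01 to 0.41.

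Single features held much of the signal of these families. In hAT-Tip100, MamTip2_dup19 had 443 fragments in TKO and 205 in TKO_FL of the family's 1115 and 890. In TcMar-Tc2, Kanga11a_dup12 had 139 and 49 of the family's 362 and 273. Without the feature with most fragments of each name, the log2(TPM + 1) difference of TcMar-Tc2 changed from -0.46 to 0.52, that of TcMar-Mariner from 0.54 to 0.29 and that of hAT-Tip100 from -0.16 to -0.05. Without exonic features hAT-Tip100 was at -0.67.

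The remaining families had few fragments. hAT-Blackjack had 91 fragments in TKO and 109 in TKO_FL, hAT? had 77 and 92, and MULE-MuDR had 56 and 43. Features assigned to DNA without a family had 39 and 46. The name UCON29, the only member of PiggyBac?, had 24 in TKO and 39 in TKO_FL. PiggyBac, whose only name is Looper, had 14 and 16.5. Its level was 5.39 TPM in TKO and 3.82 TPM in TKO_FL, so its 2 scales had opposite signs. hAT-Tip100? had 5 and 2 fragments, TcMar? 1 and 3, and TcMar 2 and 0. TcMar-Pogo and MuDR had 0 fragments in either library, which allows up to 3 in each.

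By name, the split around 0 depended on the scale. Of the 88 names, 44 had a positive and 44 a negative log2(TPM + 1) difference, and the median was 0.01, beside -0.01 over all 788 repeat names with 50 or more fragments. By shares of fragments 55 were above 0 and 33 below (62.5% above, median 0.10), beside 58.8% above and a median of 0.05 over all repeat names. A name was called when it differed by at least 2-fold on the log2(TPM + 1) scale. Called names were 5 higher (5.68%) and 4 lower (4.55%) in TKO_FL, beside 2.16% and 2.79% over all repeat names. On the scale of fragment shares, with 1 fragment added to each library, 3 were higher and 2 lower (5.68% in all), beside 3.17% over all repeat names.

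These calls were all among names with few fragments. The 9 called names had between 50.3 and 198 fragments. Of the 39 names with over 200 fragments none was called, and their differences ran from -0.74 to 0.98. Over all repeat classes 8 of 509 such names were called. The counting interval of the fragment ratio left out 0 for 21 names above and 11 below, or 36.4% of the 88, close to 36.2% over all repeat names.

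**Figure D2:**
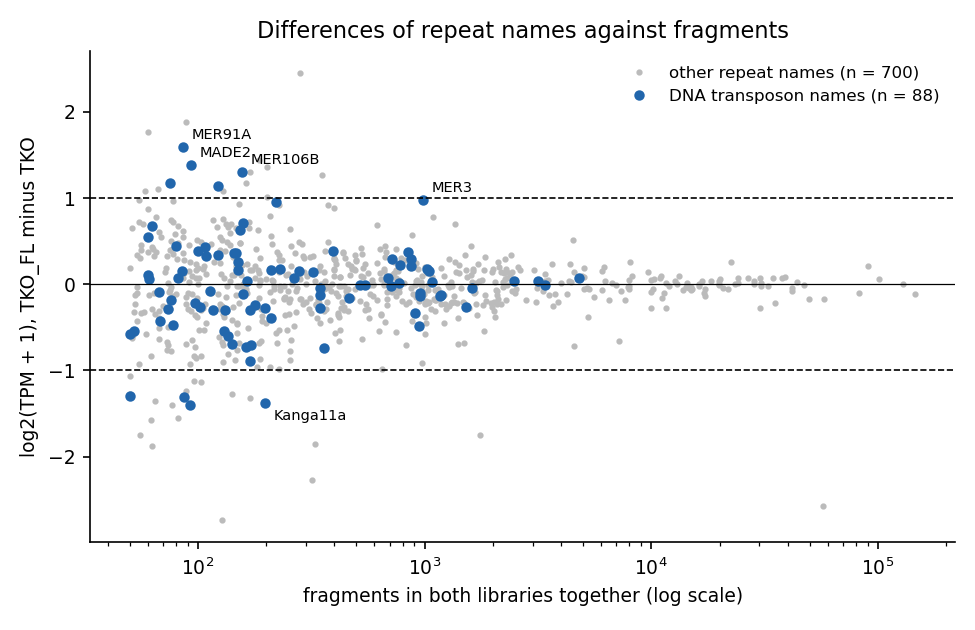
Log2(TPM + 1) difference of each repeat name, TKO_FL minus TKO, against its fragments in both libraries together (log axis), for 88 DNA transposon names (blue) and 700 other names (grey). Dashed lines mark 2-fold; the 9 DNA transposon names outside them have 50.3 to 198 fragments, and MER3 lies just under the upper line at 0.98.

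The most abundant names differed little in TPM. URR1B, a rodent hAT-Charlie element, had 2438 fragments in TKO and 2369 in TKO_FL, at 759 TPM and 801 TPM, a difference of 0.08. Its relative URR1A had 1746 and 1643 fragments at 523 TPM and 521 TPM, a difference of -0.01. MER20, an element known for its presence in regulatory DNA of the mammalian endometrium, had 1556 and 1594 fragments at 945 TPM and 970 TPM, a difference of 0.04. MER5A had 1272 and 1220 fragments, with a difference of 0.04. MER5B had 808 and 811, with a difference of -0.05. Each of these 5 was within 0.1 of equal levels on the TPM scale. By shares of fragments the log2 ratio was 0.13 (0.05 to 0.21) for URR1B, 0.20 (0.10 to 0.31) for MER20 and 0.18 (0.03 to 0.32) for MER5B, with intervals above 0, and those of URR1A and MER5A held 0.

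The next names by fragments were MER2, Charlie5, MER58A, RCHARR1 and Tigger19a. MER2, a Tigger element, had 808 fragments in TKO and 710 in TKO_FL, at 232 TPM and 192 TPM, a difference of -0.27. Charlie5 had 624 and 558 fragments with a difference of -0.13, and 76.6% of its fragments lay in 1 feature. MER58A had 621 and 547 with a difference of -0.14. RCHARR1 had 563 and 520 with a difference of 0.03. Tigger19a had 528 and 515 with a difference of 0.15. Of the 10 most abundant names MER2 had the largest difference on the TPM scale, and its ratio of fragment shares was -0.02 (-0.16 to 0.13).

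The highest differences belonged to MER91A, MADE2, MER106B, Charlie15a and Kanga2_a. MER91A, a Tip100 element, was at 16.9 TPM (27 fragments) in TKO and 52.8 TPM (59 fragments) in TKO_FL, a difference of 1.59. MADE2, a miniature mariner element, was at 33.7 TPM (27 fragments) and 89.4 TPM (66 fragments), a difference of 1.38, and 97.8% of its fragments lay in MADE2_dup8. Charlie15a was at 8.70 TPM (23 fragments) and 20.95 TPM (52 fragments), a difference of 1.18. In these 3 names the ratio of fragment shares was also above 1, at 1.30, 1.46 and 1.35, and its interval left out 0. Without exonic features MER91A turned to -1.80 on the TPM scale, and MADE2 was at 0.07 without its top feature, which is also its exonic one. Charlie15a was at 1.86 without exonic features. Few fragments remained in these settings: exonic features held 88.4% of the 86 of MER91A and 85.3% of the 75 of Charlie15a. Kanga2_a, a Tc2 element, was at 11.1 TPM (53 fragments) and 25.6 TPM (69 fragments), a difference of 1.14, but its ratio of fragment shares was 0.55 (0.01 to 1.10).

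MER106B had opposite signs on the 2 scales. It was at 25.3 TPM in TKO and 63.6 TPM in TKO_FL, a difference of 1.30, although its fragments numbered 92 in TKO and 65 in TKO_FL, a ratio of -0.33 (-0.81 to 0.14). The feature MER106B_dup78 made up 52.0% of its TPM, and MER106B_dup4, over an exon of Bzw1, held 93.6% of its fragments. The sign differed between the scales in 19 of the 88 names.

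Below the called names on the high side came MER3, Charlie1b and Charlie10. MER3 was at 1048 TPM (453 fragments) in TKO and 2066 TPM (535 fragments) in TKO_FL, a difference of 0.98, and the single feature in Sdc4 held 86.8% of its TPM. Without that feature the difference was -0.25. Charlie1b was at 28.7 TPM and 56.7 TPM, a difference of 0.96, with 105 and 117 fragments. Its ratio of fragment shares was 0.32 (-0.08 to 0.71), an interval that holds 0. Its single-copy feature Charlie1b_dup81 was at 0 TPM in TKO and 20.9 TPM in TKO_FL, from 0 and 3 fragments. Charlie10 was at 20.6 TPM and 34.4 TPM, a difference of 0.71, with 61 and 97 fragments, of which 89.9% lay in a feature over an exon of Zmym6.

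**Figure D3:**
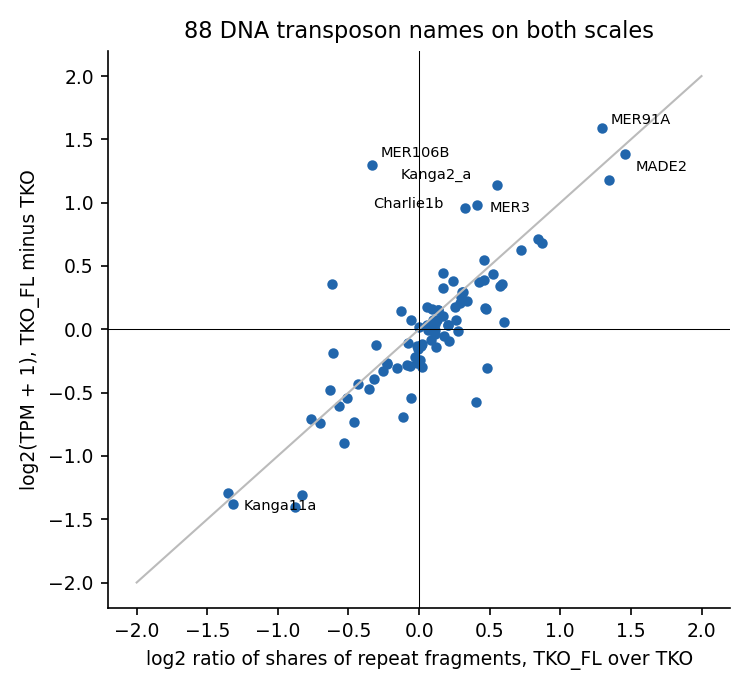
The 88 DNA transposon names on the 2 scales: the horizontal axis is the log2 ratio of their shares of repeat fragments, the vertical axis the log2(TPM + 1) difference, both TKO_FL against TKO, and the grey line marks equal values. MER106B lies at -0.33 and 1.30, and MER3 at 0.41 and 0.98, above the line; MADE2 and Kanga11a lie near it.

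On the low side MER119, Kanga11a, Charlie16a and FordPrefect were called. MER119 was at 17.9 TPM (62 fragments) in TKO and 6.17 TPM (30 fragments) in TKO_FL, a difference of -1.40. Kanga11a was at 91.3 TPM (146 fragments) and 34.5 TPM (52 fragments), a difference of -1.38. Charlie16a was at 91.4 TPM (58 fragments) and 36.4 TPM (29 fragments), a difference of -1.31. FordPrefect, a Tip100 element, was at 26.8 TPM (37.3 fragments) and 10.3 TPM (13 fragments), a difference of -1.29. The intervals of their fragment ratios all lay below 0, that of Charlie16a reaching -0.16. By fragment shares, with 1 fragment added to each library, MER119 was at -0.85 and Charlie16a at -0.81, short of 2-fold. Without its top feature Charlie16a was at -0.45 on the TPM scale, and without its exonic feature Kanga11a was at -0.80. FordPrefect stayed past 2-fold in each of these settings, at -1.28 and -1.04. Few fragments of Kanga11a and FordPrefect remain without exonic features, which held 94.9% of 198 and 74.2% of 50.3.

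The next lowest names were Charlie4z at -0.89, Tigger12 at -0.74, Cheshire at -0.73 and MER2B at -0.71. Tigger12 had 232 fragments in TKO and 127 in TKO_FL, and 85.8% of them lay in Tigger12_dup1, a feature with no copy in an exon. The ratio of its fragment shares was -0.70 (-1.02 to -0.38). Cheshire had 98.8 and 63.7 fragments, with an interval of -0.94 to 0.01.

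Which copy of a feature gave its fragments is not known, except for features with a single copy. A copy was set against the exons of the RefSeq genes in the gene count table, in mm10 coordinates, and counted as exonic with an overlap of at least 1 base. Of the 151475 copies 1478 were exonic, or 0.976%, and they belong to 1373 features, or 9.93% of features. Those features held 72.0% of the fragments of the class in TKO (71.5 to 72.6) and 73.1% in TKO_FL (72.5 to 73.7). For comparison, features with an exonic copy held 39.8% of LINE fragments, 33.1% of LTR fragments and 67.8% of SINE fragments, beside 72.6% for the DNA class over both libraries.

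**Figure D4:**
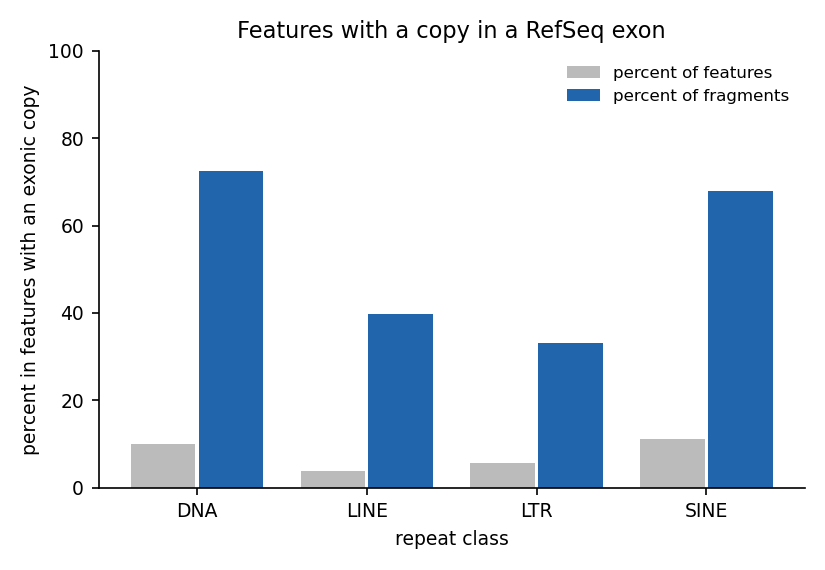
Percent of features (grey) and percent of fragments over both libraries (blue) in features that have at least 1 copy in a RefSeq exon, for 4 repeat classes. In the DNA class 9.93% of features hold 72.6% of fragments, the highest share of the 4 classes.

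Features with a single copy have a known position. Of 2221 such features 9 were exonic, and they held 212 of 261 fragments in TKO, or 81.2% (76.0 to 85.8), and 314 of 353 in TKO_FL, or 89.0% (85.2 to 92.0). Without MER3_dup238 the shares were 66.0% and 62.9%. The 1179 single-copy features outside genes held 7 fragments in TKO and 13 in TKO_FL. The 1033 in introns held 42 and 26.

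Features without an exonic copy gave the level of these elements away from annotated exons. They held 6543 fragments in TKO and 5954 in TKO_FL, or 279 and 253 per megabase. Their log2 ratio of fragment shares was 0.03, with an interval of -0.02 to 0.09 that holds 0. The ratio of features with an exonic copy was 0.11 (0.08 to 0.14). On the TPM scale the class difference without exonic features was -0.07. Of the 35 names that kept 50 fragments without exonic features, 1 was 2-fold higher (2.86%) and 0 were 2-fold lower. Of the 520 repeat names that kept as many, it was 2.5% and 3.46% (5.96% in all). None of the DNA transposon names called over all features was among the 35, so these counts do not retest those names.

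Single features were compared where they had 20 or more fragments in both libraries together. There were 360 of them, with 73.3% of the fragments of the class. At the 2-fold threshold 23 were higher (6.39%) and 17 lower (4.72%) in TKO_FL, 11.1% in all, beside 4.27%, 6.55% and 10.8% over the 14677 repeat features with as many fragments. The median difference was 0.09 for these features and -0.02 over all of them.

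Most of the 360 features overlap an exon of an expressed gene, one with at least 1 TPM in either library, and their differences went with those of the genes. A fragment in such an exon can be counted for the feature and for the gene, so the 2 values share fragments. Of 294 features with such a gene, 198 had a difference of the same sign as the gene. Pearson's r across these features was 0.66 and Spearman's rho 0.60, and the median distance between the 2 differences was 0.27. With 50 or more fragments r was 0.72 across 151 features. The points are features of the same pair of libraries and not independent samples. Among the called features, 15 of the 23 higher and 14 of the 17 lower have an expressed exonic gene, and the gene's difference had the same sign in 29 of these 29. The gene itself differed by 2-fold for 5 of the 15 and 1 of the 14.

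**Figure D5:**
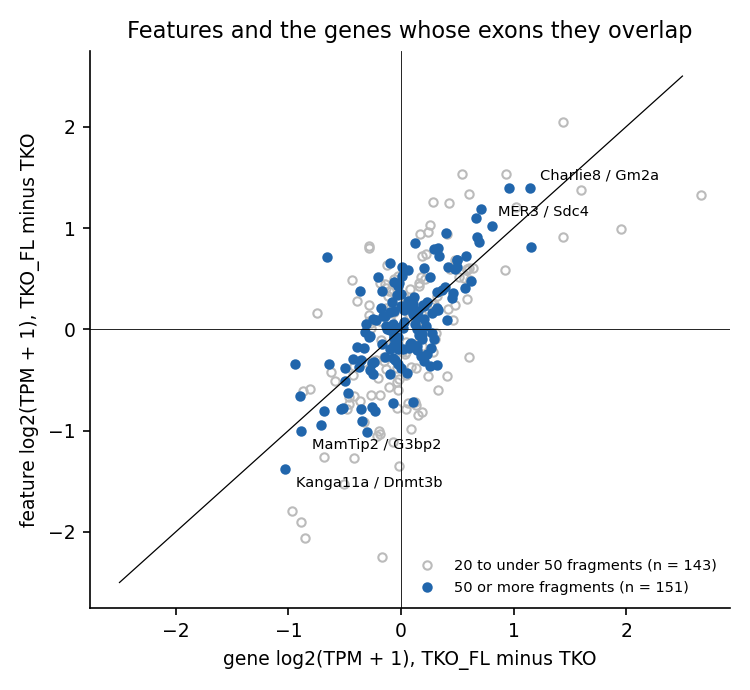
Log2(TPM + 1) difference of 294 DNA transposon features against that of the genes whose exons they overlap, TKO_FL minus TKO, for features with 50 or more fragments (blue) and with 20 to under 50 (open grey). The line marks equal values; the Kanga11a feature in Dnmt3b lies at -1.03 and -1.37, and the MER3 feature in Sdc4 at 0.71 and 1.19.

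Of the 10 features with most fragments, 9 have a copy in an exon. MER20_dup312 had 510 fragments in TKO and 535 in TKO_FL, and a copy at chr11:100599030-100599200 reaches 16 bases into an exon of Dnajc7, a co-chaperone of heat shock proteins. The gene was at 272 TPM and 299 TPM, and the difference was 0.17 for the feature and 0.14 for the gene. Charlie5_dup55 had 481 and 425 fragments, and its copy at chr11:93949775-93949870 overlaps an exon of Nme2, a nucleoside diphosphate kinase at 873 TPM and 858 TPM. Tigger1_dup37 had 387 and 285 fragments, with an overlap at chr8:72147160-72147304 with Tpm4, a tropomyosin at 282 TPM and 236 TPM. In each of these 3 the sign of the feature was that of the gene.

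The largest difference among these abundant features was that of MamTip2_dup19. It had 443 fragments in TKO and 205 in TKO_FL, at 186 TPM and 92.3 TPM, just short of the 2-fold threshold. Its copy at chr5:92052809-92052859 lies in an exon of G3bp2, a stress granule RNA-binding protein that was at 336 TPM in TKO and 181 TPM in TKO_FL. The log2(TPM + 1) difference of the gene was -0.89.

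Charlie6_dup3 had 303 and 335 fragments, and a 460-base copy lies in an exon of Thumpd1, which takes part in tRNA acetylation. Charlie24_dup19 had 274 and 279 and overlaps Srsf11, a splicing factor. Tigger19a_dup7 had 259 and 246 and overlaps Jade1, a subunit of a histone acetyltransferase complex. MER5A_dup36 had 257 and 229 and has copies in exons of Drosha, the nuclease that starts microRNA processing, and of Pomk, a kinase of dystroglycan glycosylation. MER20_dup51 had 176 and 229 and overlaps the zinc finger gene Zfp568, and the differences were 0.47 for the feature and 0.62 for the gene. URR1B_dup57, with 221 and 239 fragments over 20 copies, has no copy in an exon.

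Another pair of features was chosen after their values were seen. Kanga11a_dup12 had 139 fragments in TKO and 49 in TKO_FL. One of its 6 copies, at chr2:153670811-153670904, overlaps an exon of Dnmt3b, a de novo DNA methyltransferase, by 56 bases. Dnmt3b was at 36.9 TPM in TKO and 17.6 TPM in TKO_FL, a difference of -1.03 beside -1.37 for the feature. Charlie8_dup31 had 49 and 125 fragments and overlaps Gm2a, the GM2 ganglioside activator, at 12.7 TPM and 29.2 TPM. Feature and gene were both lower in TKO_FL in the first case and both higher in the other.

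At the top of the 360 features stood URR1A_dup163, with 0 fragments in TKO and 27 in TKO_FL. With TKO set at a floor of 3 fragments this is 9.67-fold, leaving aside the counting error of the 27. The feature passed the minimum of 20 fragments through TKO_FL alone. None of its 21 copies is in an exon. MER2_dup309, with 19.5 and 59.3 fragments and a difference of 1.54, has no exonic copy. RMER30_dup56 had 4 and 16 fragments and overlaps Spock2, a proteoglycan of the extracellular matrix at 2.15 TPM and 5.03 TPM. URR1A_dup506 had 5 and 21 fragments and overlaps Syt13, a synaptotagmin at 3.18 TPM and 5.07 TPM. MADE2_dup8 had 26 and 65 fragments and overlaps Spag9, a scaffold protein of JNK signalling at 16.2 TPM and 32.6 TPM. Of these 5 features, 3 overlap an expressed gene, and each of the 3 genes was higher in TKO_FL as well.

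At the bottom stood Tigger19a_dup19, with 21 fragments in TKO and 2 in TKO_FL, a difference of -2.25. It overlaps Ncor1, a corepressor of nuclear receptors, which was at 71.3 TPM and 63.2 TPM, a much smaller difference of -0.17. Charlie4z_dup14 had 25 and 4 fragments and overlaps Sarnp, an mRNA export factor at 80.8 TPM and 44.3 TPM. MER2B_dup6 had 23 and 4 and overlaps Aoah, a lipid hydrolase at 11.7 TPM and 5.89 TPM. Charlie16a_dup17 had 27 and 7 and overlaps Smpdl3b, a phosphodiesterase at 18.3 TPM and 8.85 TPM. MamRep38_dup10 had 31 and 9 and overlaps Stat2, a transcription factor of the interferon response at 9.09 TPM and 6.13 TPM. Tigger7_dup6 had 29 and 7.5 fragments and no exonic copy.

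Genes derived from transposases are host genes that keep a sequence of this class as a protein-coding exon. Of 29 such genes listed, 28 were in the gene table and 24 had at least 1 TPM in either library. None of the 24 was called higher and none lower, beside 3.58% and 3.06% of 13642 genes. A positive difference was found for 8 of 24, beside 6839 of the 13642 genes. The median was -0.08, beside 0.00 over all genes. The most abundant was Cenpb, a pogo-derived protein of centromeres, at 69.6 TPM in TKO and 64.6 TPM in TKO_FL. Thap12 was at 45.5 TPM and 38.01 TPM, and Thap4 at 38.8 TPM and 47.3 TPM. Rag1 and Rag2, the recombinase of antigen receptor genes in lymphocytes, and Tigd4 had no fragments in either library.

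The largest difference in this list was that of Naif1, a Harbinger-derived nuclear protein, at 6.15 TPM (95 fragments) in TKO and 2.58 TPM (37 fragments) in TKO_FL. Its log2(TPM + 1) difference fell just short of the threshold. Harbi1, the transposase-like partner of Naif1 from the same superfamily, was at 12.8 TPM and 7.92 TPM, a difference of -0.63. Pgbd1, a piggyBac-derived gene, was at 1.78 TPM and 0.803 TPM, and Thap11, a P-element-like zinc finger factor of stem cells, at 48.4 TPM and 32.3 TPM. Thap2 was the highest, at 1.82 TPM and 3.16 TPM, a difference of 0.56. Zbed5, a hAT-derived gene, was at 24.7 TPM (310 fragments) and 17.2 TPM (201 fragments), a difference of -0.49.

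Zbed5 also appears among the features. A Charlie24_dup13 copy of 1808 bases at chr5:129901698-129903505 lies entirely in a Zbed5 exon, and the feature had 234 fragments in TKO and 166 in TKO_FL, a difference of -0.38. With Gtf2ird2, Jrk, Jrkl and Tigd2 it is 1 of 5 genes of the list that have an exon over a DNA transposon feature with 20 or more fragments.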

How the data were processed

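Poly(A) RNA-seq values of the libraries labelled TKO and TKO_FL were used. The third RNA library, TKO_602, and 8 immunoprecipitation samples were not analysed here. Tools listed in the submitters' processing notes are featureCounts, Subread, SAMtools, HISAT2 and Trim Galore, with the build mm10, and per the file headers the gene counts were made with featureCounts version 2.0.6 on paired reads without a strand option. From that deposited count table the RefSeq exons were taken. How repeats were annotated and counted was not given in the sources used here.

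Deposited signal values of the repeat and gene tables, named TPM by the authors, were divided by 10. Value times length, divided by what 1 fragment is worth in each library, gave fragments. Of the detected DNA transposon features 150 held a fraction of a fragment (tolerance 0.01), and they held 15.2% of the fragments. Some fragments had thus been divided in the deposited values, and the rule for dividing them was not given. The gene table came to 10860312 fragments in TKO and 10084490 in TKO_FL. The repeat values include 11 columns that match no sample, which were not used.

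Values were summed by family and name. A log2(TPM + 1) difference has a pseudocount of 1, and a difference of at least 2-fold was called. Shares of fragments refer to all fragments of the repeat table; for any 1 feature the log2 difference in TPM, before the pseudocount, equals that in shares plus -0.07. Intervals are exact (Clopper-Pearson) at 95%. Overlaps used bedtools 2.31.1, and the rest Python 3.11.15 with numpy 2.4.6, pandas 2.3.3, scipy 1.17.1 and matplotlib 3.10.9. The steps were tested on simulated fragments. Each name had 1 fixed TPM per fragment there, so the test could not show the 2 scales parting. Of 40 names raised 2-fold 24 were called, of 40 lowered 2-fold 19, and of 588 unchanged names 1. The simulated fragments had counting error only, so these counts give no rate of false calls between real libraries. Promoter windows came from RefSeq (GRCm38.p6).

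Named are all families, the 10 names with most fragments, the 8 highest and 8 lowest, the 10 features with most fragments and the 6 highest and 6 lowest, and of the transposase-derived genes the 6 with the largest differences and the 4 most abundant. Of the 6 highest features 1 is not reported here. The members and the gene lists were chosen with earlier results of these data known. Alternatives tried were other pseudocounts, thresholds and minimum fragments, both fragment scales, and leaving out features with fractions, exonic features or the top feature of each name.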

Additional observations from a re-analysis of the deposited data

How the results depend on the processing

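No paired analysis was possible because each genotype has 1 library, and for the same reason no replicate could be left out. The count of names at least 2-fold higher in TKO_FL was 5 of 88. It became 3 of 88 with a pseudocount of 5, and 3 of 88 on either fragment scale (with 1 fragment added to each library). Without exonic features it was 1 of 35, and without the top feature of each name 2 of 54. It became 8 of 116 with names of 20 or more fragments, 2 of 67 with 100 or more and 16 of 172 with any fragment. At 1.5-fold it was 10 of 88. Shares over all repeat names are given above only for the main setting, repeat fragments and features without an exonic copy. The count at least 2-fold lower, 4, became 2 on either fragment scale and 10 at 1.5-fold. It was 1 with 100 or more fragments and 22 with any fragment. Without exonic features it was 0 of 35, with the minimum of fragments applied again. None of the names called in the main setting kept that minimum, so the counts of 35 do not retest those names. Without exonic features the 4 lower names were at -2.03 (Charlie16a), -1.61 (MER119), -1.04 (FordPrefect) and -0.80 (Kanga11a), from few remaining fragments. The class difference of 0.12 became 0.091 as a share of repeat fragments, 0.027 as a share of gene fragments, -0.068 without exonic features and 0.033 without the top feature of each name. In choices made after seeing the data, leaving out features shorter than 200 bases gave 0.0018 for the class and 3 names higher, and leaving out MER3_dup238 gave -0.0087. The cause of these changes was not tested. The median over names stayed within the middle range of the names in each alternative, from -0.19 without exonic features to 0.10 on the scale of repeat fragments.

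Of the 360 single features, 23 higher and 17 lower became 2 and 2 at 4-fold. The counts were 7 and 2 with 50 or more fragments, and 52 and 46 with 10 or more. The number of features compared changes with this minimum. With a pseudocount of 0.1 there were 36 higher, and with 5 there were 7 higher and 6 lower. Transposase-derived genes lower in TKO_FL numbered 0, and 2 with a pseudocount of 0.1. MER106B, at 1.30, turned to -0.32 as a share of repeat fragments, -0.39 as a share of gene fragments and -0.52 without features shorter than 200 bases. MER91A, at 1.59, turned to -1.80 without exonic features, which held 88.4% of its 86 fragments. Names with about 50 fragments carry wide counting intervals, as for FordPrefect at -2.37 to -0.39.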
